A study of Mus musculus with 12 samples.

Results

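Genes that buffer, pump and release calcium were followed in Min6 cells. This line was derived from a mouse insulinoma, secretes insulin and stands in for the pancreatic beta cell. The set lists 10 genes: the cytosolic buffer Calb1, the surface pump Atp2b1, the store pumps Atp2a2 and Atp2a3, the store release channels Itpr1, Itpr2, Itpr3 and Ryr2, the store sensor Stim1 and the store-operated channel Orai1. A gene was measured where a row of the deposited table carries exactly 1 symbol equal to its name. Of the 10 genes, 9 were measured, with 1 row each, among 19938 genes with such a row on the array. Itpr1 was not analysed here. The genes were picked for their roles with earlier results of these arrays in view, those of Calb1 among them. Their values are therefore a description, no p-value is given for them, and nothing is read from how many of them differed. All 9 rows averaged above the median of all values over the 12 arrays, though Calb1 lay below it in DC. No filter on low values was applied.

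The 12 RNA samples came from a single experiment in quadruplicate, 4 in each of 3 conditions, all after 3 consecutive periods of 5 days. In the return condition (RC) the cells spent the first period in medium with 15% fetal calf serum at 20% oxygen, the second without serum at 5% oxygen, and the last back in serum at 20% oxygen, so that they had 5 serum-free days. In the defined condition (DC) the cells had 10 serum-free days at 5% oxygen, in DMEM-F12 with apo-transferrin, progesterone, putrescine and selenite. In the classic condition (CC) the cells stayed in serum at 20% oxygen and had 0 serum-free days. Serum, oxygen, basal medium and supplements changed together, and RC also had fewer serum-free days than DC, so these factors cannot be told apart. The labels do not say that the 4 samples of a condition came from cultures started separately, so the spread between them may be technical.

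Calcium is the trigger of insulin release. Glucose metabolism depolarises the beta cell, voltage-gated channels in the plasma membrane open, and the calcium that enters drives the fusion of insulin granules. The signal is shaped by binding proteins in the cytosol, by pumps and sodium-calcium exchangers that remove calcium, and by the endoplasmic reticulum, which takes calcium up through SERCA pumps and gives it back through inositol trisphosphate (IP3) and ryanodine receptors. When this store runs low, STIM proteins in its membrane open ORAI channels at the cell surface, the pathway called store-operated entry.

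The array gives 1 log2 expression value per row for each of 35556 rows, and 1 unit is a doubling. Levels of different genes come from different probes and are not compared. The array medians ran from 7.92 to 8.05 and the interquartile ranges from 2.42 to 2.75. Array RC 3 stood apart, with a mean correlation of 0.976 with the other RC arrays (0.989 to 0.990 for those arrays, RC 3 included), and it had the narrowest interquartile range, followed by DC 4 (2.44) and DC 2 (2.47). The interquartile ranges of CC 1 and CC 2 were 2.73 and 2.75, and those of CC 3 and CC 4 were 2.58 and 2.57. Of 10 measured beta cell markers, 9 averaged above the median of all values (7.99), with Iapp at 13.82 and Pdx1 at 11.68, while the glucose transporter Slc2a2 averaged 7.80. Nkx2-2 and Slc30a8 of this list were called, both higher in DC than in CC (0.29 and 0.31) and lower in RC than in DC (-0.34 and -0.45). None of the 5 fibroblast, 3 endothelial, 3 immune or 3 exocrine and ductal markers measured was called in any comparison. Of these, 3 fibroblast and 2 immune markers averaged above the median of all values, with the macrophage marker Cd68 at 9.81. The endothelial, exocrine and ductal markers did not, and all 4 other islet hormones did. In the list of 4 other islet hormones the somatostatin gene Sst was called lower in DC than in CC and higher in RC than in DC, as were Calb1, Atp2b1, Itpr3 and Ryr2 of the set, and not called in RC against CC. It averaged 12.25 ± 0.16 in RC, 10.55 ± 0.63 in DC and 11.81 ± 0.19 in CC (SD, n = 4). The summed signal of this list ran from 13.30 to 13.54 in RC, from 12.67 to 12.98 in DC and from 13.14 to 13.40 in CC (log2), with Gcg, Ppy and Ghrl not called. The sum adds signals of different probes, so the brightest rows weigh most, and it does not count cells. The part of these hormones in the results was not tested. In RNA from whole cultures, fewer cells that express a gene and less RNA per cell cannot be told apart.

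A row is called here when its limma p-value, adjusted over all 35556 rows, was under 0.05 in a model with 1 mean per condition. Of the 9 genes, 6 were called in DC against CC, all lower, where 6.64% of all rows were called (4.32% lower and 2.31% higher). In RC against DC, 5 of the 9 were called, 4 higher and 1 lower, where 2.63% of all rows were called (1.45% higher and 1.18% lower). In RC against CC, 1 of the 9 was called, lower, where 0.796% of all rows were called (0.675% lower and 0.121% higher). The arrays of DC and CC did not overlap for 6 genes (15.3% of all rows), those of RC and DC for 6 (6.29%) and those of RC and CC for 5 (7.94%). The median difference of the 9 genes was -0.55 in DC against CC, 0.30 in RC against DC and -0.16 in RC against CC, beside medians of 0.04, -0.01 and 0.03 over all rows. All comparisons rest on shared arrays, so the call patterns of a gene are not independent of each other. Over all rows, 823 were called higher and 1537 lower in DC against CC, and 502 higher and 1698 lower when the arrays were centred on a common median.

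Calb1 encodes calbindin D28k, a cytosolic protein that binds free calcium with high affinity. It had the widest range of all 9 genes. The RC arrays read 9.57, 9.18, 9.02 and 9.51, the DC arrays 7.63, 7.28, 7.59 and 7.60, and the CC arrays 9.43, 9.24, 9.10 and 9.05. All 4 DC arrays lay more than 1 log2 unit below every RC and CC array, and the RC and CC arrays overlapped. The DC arrays also lay below the median of all values (7.99), and no detection call was used. Whether the DC signal reached a floor of the array, which would bound the fold differences, was not tested. Against CC, Calb1 was lower in DC by a log2 difference of -1.68 ± 0.13 (SE, n = 4 per condition), a 3.20-fold difference. Against DC, it was higher in RC by 1.79 ± 0.13, or 3.47-fold. The 95% interval of the difference between RC and CC ran from -0.17 to 0.40, which includes 0. The 2 differences that involve DC were called under each of the 22 alternatives tried, which include leaving out RC 3.

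**Figure D1:**
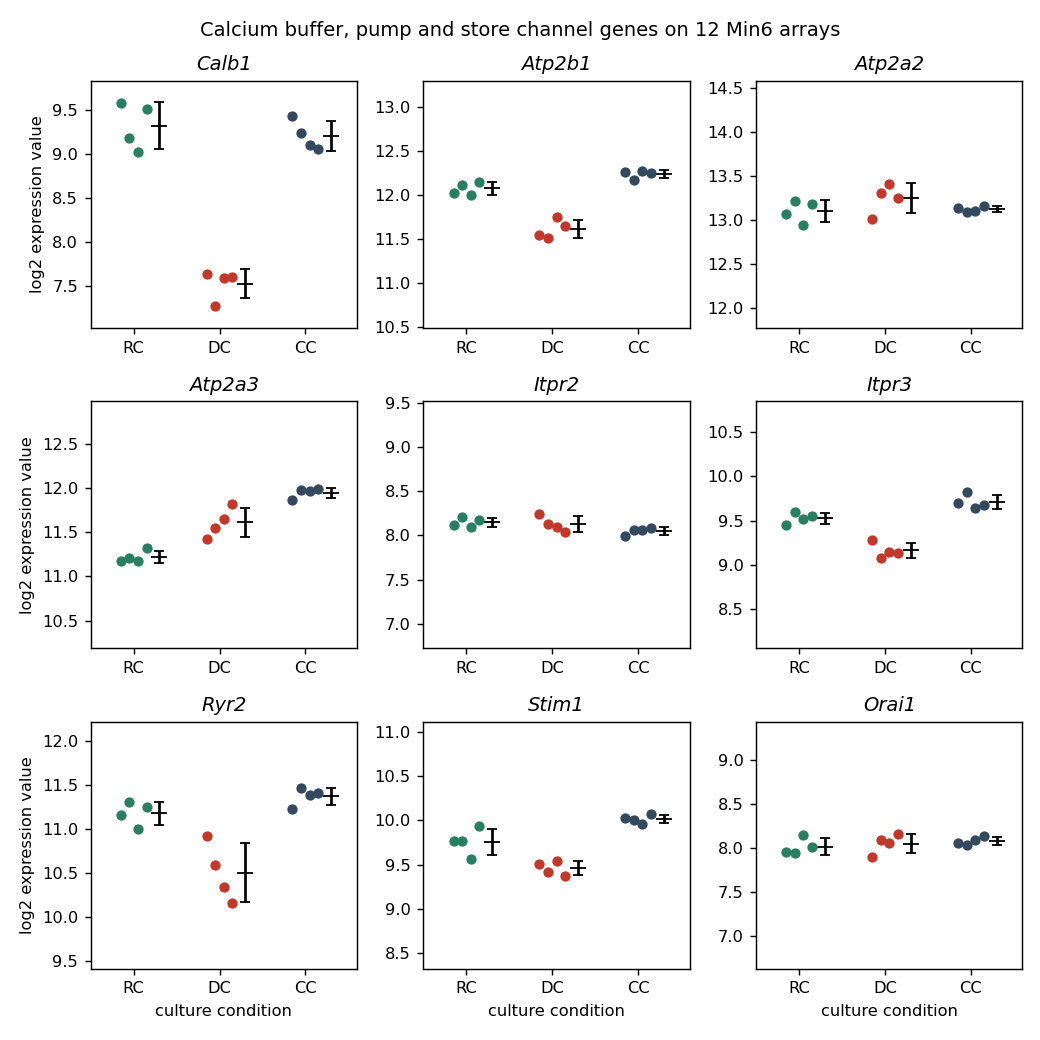
Log2 expression value (vertical axis, each panel spanning the same number of log2 units) of the 9 measured genes on the 12 arrays, by culture condition. Points are single arrays, and the bar beside each group is the mean with its SD (n = 4). The Calb1, Atp2b1, Itpr3 and Ryr2 points of DC lie below all points of RC and CC, whereas Atp2a3 is lowest in RC.

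Calcium leaves the cell through plasma membrane pumps, and Atp2b1, which encodes the pump PMCA1, was lower in DC. It read 12.02, 12.11, 11.9995 and 12.15 in RC, 11.55, 11.51, 11.74 and 11.65 in DC, and 12.25, 12.17, 12.27 and 12.25 in CC. No 2 conditions overlapped, and the order was CC, RC, DC from high to low. The log2 difference was -0.62 ± 0.06 for DC against CC (1.54-fold) and 0.46 ± 0.06 for RC against DC (1.37-fold), both called under each alternative. RC against CC differed by -0.16 (95% interval -0.30 to -0.02) and was not called.

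The store pumps did not move together. Atp2a2 encodes SERCA2, the widely expressed pump of the endoplasmic reticulum, and read 13.06, 13.21, 12.94 and 13.18 in RC, 13.01, 13.30, 13.41 and 13.25 in DC, and 13.13, 13.09, 13.10 and 13.16 in CC. All 3 conditions overlapped. None of its differences was called, with 95% intervals of -0.07 to 0.31 for DC against CC, -0.33 to 0.04 for RC against DC and -0.21 to 0.16 for RC against CC.

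Atp2a3 encodes SERCA3, a store pump with a lower affinity for calcium that is found in beta cells. It read 11.17, 11.21, 11.18 and 11.32 in RC, 11.43, 11.55, 11.66 and 11.82 in DC, and 11.87, 11.98, 11.97 and 11.99 in CC. No 2 conditions overlapped, and RC, not DC, was the lowest. RC was lower than CC by a log2 difference of -0.73 ± 0.08 (SE, n = 4 per condition), or 1.66-fold, which was the only call among the 9 genes in that comparison. DC was lower than CC by -0.34 ± 0.08 and RC was lower than DC by -0.39 ± 0.08. Atp2a3 was the only one of the 5 genes called in RC against DC that was lower in RC. The RC against CC call ended when CC 3 and CC 4 were both left out (-0.70). The DC against CC call ended without CC 2, CC 3, CC 4 or DC 2 (values -0.33 to -0.32), without either CC pair, and with quantile normalization (-0.29). The RC against DC call ended without DC 3, RC 1 or RC 2 (values -0.39 to -0.38) without CC 3 and CC 4 together, without DC 2, DC 4 and RC 3 together (-0.30) and with only the 2 conditions in the model.

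**Figure D2:**
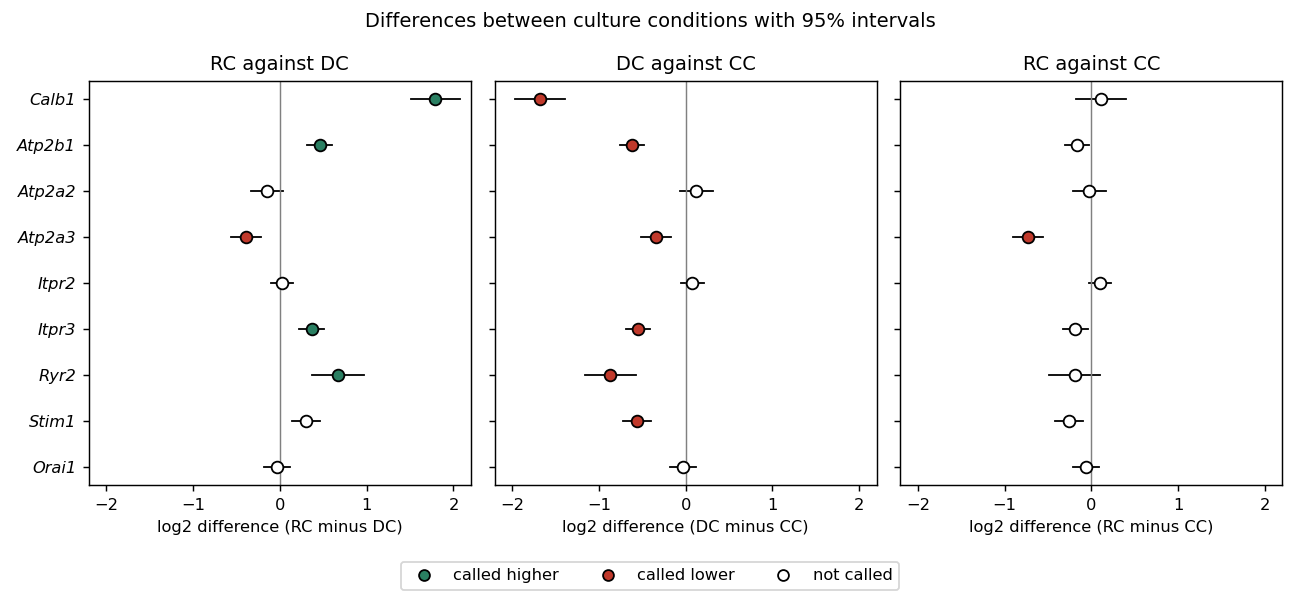
Log2 difference between culture conditions (horizontal axis) for the 9 measured genes, with the 95% interval as a line. Filled points were called over all rows and open points were not. RC against DC and DC against CC mirror each other for Calb1, Atp2b1, Itpr3 and Ryr2, which share the DC arrays, and Atp2a3 alone is called in RC against CC.

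Ryr2 encodes a ryanodine receptor, a release channel that opens in response to calcium itself. It read 11.15, 11.30, 11.00 and 11.25 in RC, 10.92, 10.59, 10.34 and 10.16 in DC, and 11.23, 11.46, 11.38 and 11.41 in CC. The DC arrays lay below all others and were the most scattered of any gene and condition in the set (SD 0.13 in RC, 0.33 in DC and 0.10 in CC). The log2 difference was -0.87 ± 0.14 for DC against CC (1.82-fold), called under each alternative, and 0.67 ± 0.14 for RC against DC (1.59-fold). The RC against DC call ended without DC 3, RC 1, RC 2 or RC 4 (values 0.62 to 0.68), without CC 3 and CC 4 together, with DC 2, DC 4 and RC 3 left out (0.60) and with only the 2 conditions in the model. RC and CC overlapped, with a 95% interval of -0.49 to 0.10. Among the DC arrays, the one with the highest Ryr2 value had the lowest Atp2a3 value and the one with the lowest Ryr2 value had the highest.

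IP3 receptors release store calcium after hormone or neurotransmitter signals that activate phospholipase C. Itpr3, one of the receptor forms of islet cells, read 9.45, 9.59, 9.51 and 9.55 in RC, 9.28, 9.07, 9.15 and 9.14 in DC, and 9.70, 9.83, 9.64 and 9.68 in CC. The 3 conditions did not overlap, with CC highest and DC lowest. The log2 difference was -0.55 ± 0.06 for DC against CC (1.46-fold), called under each alternative, and 0.36 ± 0.06 for RC against DC (1.29-fold), whose call ended without DC 2, DC 4 and RC 3 together (0.31). RC against CC differed by -0.19 (95% interval -0.33 to -0.05) and was not called. Itpr2, a form with high affinity for IP3, read 8.12, 8.21, 8.10 and 8.18 in RC, 8.25, 8.13, 8.10 and 8.04 in DC, and 7.99, 8.06, 8.06 and 8.09 in CC, close to the median of all values. It was not called in any comparison. Its 95% interval for DC against CC, -0.05 to 0.21, lies wholly above that of Itpr3, -0.69 to -0.41.

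Stim1 encodes the sensor that reads the calcium level inside the store. It read 9.76, 9.77, 9.57 and 9.93 in RC, 9.51, 9.42, 9.54 and 9.36 in DC, and 10.02, 10.01, 9.96 and 10.07 in CC. No 2 conditions overlapped, and RC lay between DC and CC. The log2 difference was -0.56 ± 0.08 for DC against CC (1.47-fold), called under each alternative. RC against DC differed by 0.30 ± 0.08 and was not called, but it was called without RC 3 (0.36), with quantile normalization (0.27), with the interquartile range as a covariate (0.28), with array weights (0.38) and over the brighter rows alone. RC against CC differed by -0.26 ± 0.08 and was called only with array weights (-0.20).

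Orai1 encodes a subunit of the surface channel that STIM proteins open. It read 7.95, 7.94, 8.15 and 8.01 in RC, 7.90, 8.09, 8.05 and 8.16 in DC, and 8.05, 8.04, 8.09 and 8.13 in CC, near the median of all values, and the 3 conditions overlapped. Its 95% intervals were -0.18 to 0.12 for DC against CC, -0.19 to 0.11 for RC against DC and -0.22 to 0.08 for RC against CC. No detection call was used here. Stim1 differed between DC and CC where Orai1 was not called, and their intervals for this difference do not overlap.

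**Figure D3:**
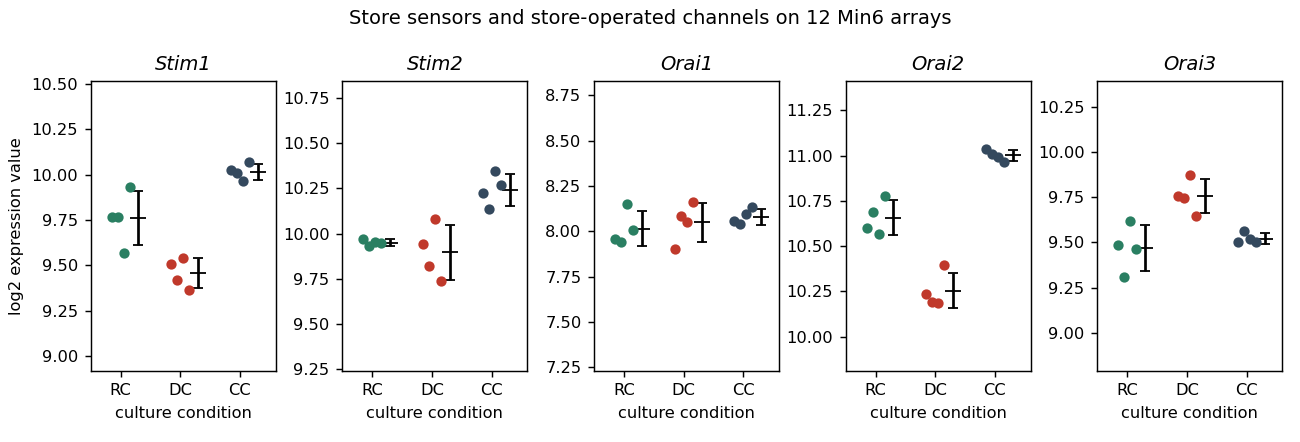
Log2 expression value (vertical axis, each panel spanning the same number of log2 units) of the store sensors Stim1 and Stim2 and the channels Orai1, Orai2 and Orai3 on the 12 arrays, by culture condition. Points are single arrays and bars are the mean with its SD (n = 4). Stim1, Stim2 and Orai2 are lowest in DC by their means, Orai3 is highest in DC, and Orai1 overlaps throughout.

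The other genes of store-operated entry were tested as part of a list of further calcium genes. Orai2, another channel subunit, averaged 10.66 ± 0.09 in RC, 10.25 ± 0.10 in DC and 11.00 ± 0.03 in CC (SD, n = 4). It was lower in DC than in CC by a log2 difference of -0.75 (limma adjusted p = 2.8e-05) and higher in RC than in DC by 0.40 (limma adjusted p = 0.0050), with every array of one condition apart from the other in both. It was also lower in RC than in CC by -0.34 (limma adjusted p = 0.035), a call that ended in 12 of the 22 alternatives (limma adjusted p up to 0.28). A second Orai2 row, 10534570, differed by -0.81 in DC against CC and by 0.46 in RC against DC, both called, and by -0.35 in RC against CC, which was not called (limma adjusted p = 0.070). Whether either row also matches sequence outside Orai2 was not tested. The sensor Stim2 averaged 9.90 ± 0.15 in DC and 10.24 ± 0.09 in CC and was lower in DC by -0.35 (limma adjusted p = 0.015). That call ended without CC 3 (-0.31), without DC 2 (-0.32), without CC 3 and CC 4 together (-0.28) and without DC 2, DC 4 and RC 3 together (-0.23). Orai3 averaged 9.47 ± 0.13 in RC, 9.75 ± 0.09 in DC and 9.52 ± 0.03 in CC and was not called (limma adjusted p = 0.057 for RC against DC, 0.078 for DC against CC).

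The whole list holds 71 calcium genes outside the set, of which 66 were measured, and it was chosen by role with earlier results of these arrays known. In DC against CC, 11 were lower, 3 were higher and 52 were not called, a share of 21.2% called beside the 6.64% of all rows. In RC against DC, 6 were higher, 4 were lower and 56 were not called (15.2% beside 2.63%). In RC against CC, 1 was higher, 1 was lower and 64 were not called (3.03% beside 0.796%). The list's median difference was close to 0 in each comparison, at -0.04, -0.01 and -0.01 in the same order.

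Sodium-calcium exchangers use the sodium gradient to remove calcium. Of 4 measured, Slc8a3 was lower in DC than in CC by a log2 difference of -0.66 ± 0.06 (SE, n = 4 per condition; limma adjusted p = 3.1e-05) and higher in RC than in DC by 0.38 ± 0.06. Its arrays read 9.16 to 9.22 in RC, 8.73 to 8.91 in DC and 9.42 to 9.57 in CC, without overlap. Slc8a1, the form best known from heart, was lower in DC by -0.58 ± 0.08, and a dimmer row of the same gene by -0.71. Slc8a2 was lower in RC than in DC by -0.27, a call that ended in 15 of the 22 alternatives. Of 7 genes for surface, Golgi and store pumps outside the set and for 2 small regulators of SERCA, Pln and Sln, none was called in any comparison. Atp2c1, a Golgi pump, had the smallest p of this group for DC against CC, at -0.34 (limma adjusted p = 0.13), while the regulator Pln had it for RC against DC (-0.07) and the surface pump Atp2b2 for RC against CC (-0.17).

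Of 8 further store release channels and regulators, the endoplasmic reticulum calcium leak channel gene Tmco1 was lower in DC than in CC by -0.71 ± 0.10 (limma adjusted p = 8.4e-04). The ryanodine receptor gene Ryr3 was higher in RC than in DC by 0.43 ± 0.07 (limma adjusted p = 0.0071) and was not called in DC against CC; the call ended with only the 2 conditions in the model (limma adjusted p = 0.053). Ryr3 read 7.84 to 8.16 in RC, 7.48 to 7.68 in DC and 7.74 to 7.79 in CC. Its row averaged below the median of all values (7.99), and no detection call was used. Among 10 calcium binding proteins of the secretory pathway lumen, Calu (-0.67 ± 0.08), Rcn2 (-0.59 ± 0.11) and Nucb1 (-0.38) were lower in DC than in CC and 0 were higher. Calu was also higher in RC than in DC by 0.37, a call that ended in 10 of the 22 alternatives (limma adjusted p up to 0.13), among them leaving out DC 2, DC 4, RC 1, RC 2 or RC 4 (values 0.33 to 0.36). The call of Nucb1 also ended in 10, among them leaving out any single CC array or DC 2 (limma adjusted p up to 0.17), and that of Rcn2 without CC 3 and CC 4 together (-0.57, limma adjusted p = 0.053). In the mitochondrial uptake group 1 of 5 was called in DC against CC, Letm1 (-0.32), a mitochondrial inner membrane protein, whose call ended without CC 1 and CC 2 together (-0.26, limma adjusted p = 0.14). The uniporter pore gene Mcu had the smallest p of the group for RC against DC (0.28) and was not called. In RC against CC, the smallest p of their groups were those of Slc8a3 (-0.28), Tmco1 (-0.40), Nucb1 (-0.35) and Letm1 (-0.18), none of them called. Of 6 further cytosolic binding proteins and 9 genes of IP3 formation and removal, 0 were called in any comparison. In the cytosolic group the smallest p for DC against CC was that of calretinin, Calb2, the closest relative of Calb1 in the list, with a difference of 0.15 ± 0.08 (limma adjusted p = 0.31). Calmodulin gene Calm2 had the smallest p of that group in RC against DC (0.25) and again in RC against CC (0.20). Among the IP3 genes it was that of the phospholipase gene Plcb4 in DC against CC (-0.19) and in RC against DC (0.18), and that of the phosphatase gene Inpp5a for RC against CC (-0.23).

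The voltage-gated calcium channel subunits moved in both directions. Of 11 measured, 3 were higher and 2 lower in DC than in CC. Cacna1e, the pore subunit of R-type channels, read 8.81 to 8.94 in RC, 9.12 to 9.36 in DC and 8.35 to 8.50 in CC. It was higher in DC than in CC by a log2 difference of 0.81 ± 0.07 (SE, n = 4 per condition; limma adjusted p = 1.8e-05), lower in RC than in DC by -0.38 ± 0.07, and higher in RC than in CC by 0.43 ± 0.07 (limma adjusted p = 0.015). The RC against CC call ended in 7 of the 22 alternatives: without CC 1, CC 3, RC 1 or RC 2 (values 0.40 to 0.45), without either CC pair, and with the replicate number as a block (limma adjusted p = 0.069). Cacna1b, of N-type channels, was higher in DC by 0.32 and lower in RC than in DC by -0.37, and Cacna1g, of T-type channels, was higher in DC by 0.32. Cacna1a, of P/Q-type channels, went the other way, lower in DC by -0.34 and higher in RC than in DC by 0.37. The accessory subunit gene Cacnb1 was lower in DC by -0.26, a call that ended in 8 of the 22 alternatives (limma adjusted p up to 0.20), among them leaving out CC 1, CC 2, CC 3, DC 2 or DC 3 (values -0.27 to -0.24). Without CC 3 and CC 4 together the DC against CC calls of Cacna1a and Cacna1b ended, and without CC 1 and CC 2 together those of Cacna1b and Cacna1g. The Cacna1b call in RC against DC ended with only the 2 conditions in the model. In RC against DC, Cacna1h was lower by -0.47 and Cacnb4 higher by 0.30. The Cacnb4 call ended in 13 of 21 alternatives. Its row averaged below the median of all values and so was absent from the alternative over the brighter rows. The L-type pore subunits Cacna1d and Cacna1c, the main route of calcium entry in beta cells, were not called, with 95% intervals for DC against CC of -0.30 to 0.03 and -0.06 to 0.31. Cacna1d averaged 9.44 ± 0.12 in RC, 9.38 ± 0.11 in DC and 9.52 ± 0.07 in CC (SD, n = 4). Cacna1c averaged 10.53 ± 0.14 in RC, 10.80 ± 0.13 in DC and 10.67 ± 0.08 in CC, so its means lay furthest apart between RC and DC.

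**Figure D4:**
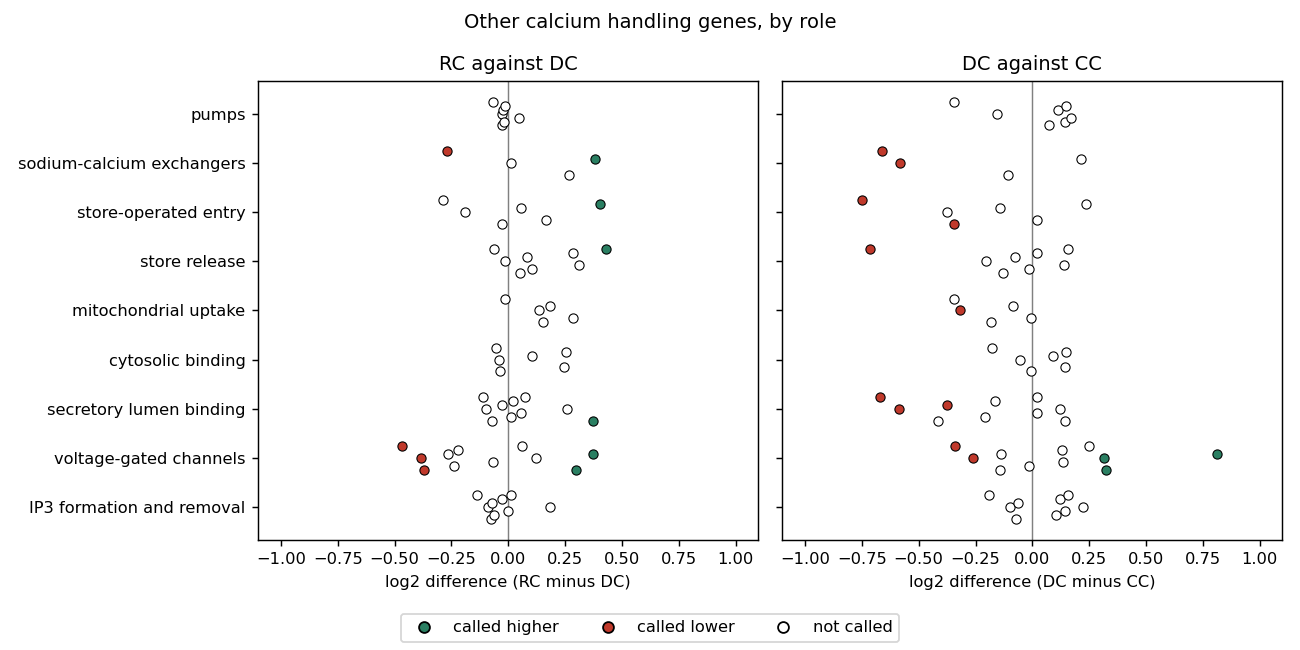
Log2 difference (horizontal axis) of the 66 other calcium genes, 1 point per gene, grouped by role, in RC against DC (left) and DC against CC (right). Filled points were called over all rows and open points were not. The called exchanger, store entry, store release and lumen genes lie below 0 in DC against CC, and the voltage-gated channels lie on both sides.

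Across the 12 arrays, the genes whose values ran most closely with Calb1 were the helix-loop-helix inhibitor Id2 (Pearson r = 0.993), Lgi2 (0.984), the reticulon Rtn1 (0.983) and the opsin Opn5 (0.982). Id2 averaged 11.15 ± 0.19 in RC, 9.27 ± 0.15 in DC and 11.03 ± 0.24 in CC (SD, n = 4). For Ryr2, the set's gene with the widest range of condition means after Calb1, they were Iqsec3 (0.971), Gpr63 (0.971), Frmd5 (0.969) and Ell2 (0.964). Iqsec3 averaged 11.15 ± 0.10 in RC, 10.57 ± 0.24 in DC and 11.24 ± 0.07 in CC. These correlations are a description: the arrays form condition groups, DC apart from the other two, and share their condition means. Within the set, the correlation with Calb1 was 0.917 for Atp2b1, 0.877 for Itpr3, 0.842 for Ryr2 and 0.826 for Stim1, and -0.09 for Atp2a3, -0.13 for Orai1, -0.17 for Itpr2 and -0.49 for Atp2a2.

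Start site windows are shown for Atp2b1, Itpr3, Ryr2 and Stim1, which like Calb1 were lowest in DC, and for Atp2a3, which was lowest in RC. No window of Calb1 was used here. RefSeq windows of assembly GRCm38.p6, from 250 bases before to 50 after the start, were held for 7 of the 10 genes, in 8 windows, Atp2b1 having 2. The windows do not come from the array, whose coordinates were not used. The windows lie at chr10:98914392-98914691 on the plus strand for Atp2b1 (the first of 2), chr17:27057054-27057353 on the plus strand for Itpr3, chr13:12106896-12107195 on the minus strand for Ryr2, chr7:102267569-102267868 on the plus strand for Stim1 and chr11:72960919-72961218 on the plus strand for Atp2a3. Capitals mark ACGTG, a form of the core letters bound by hypoxia-inducible factors, on either strand. Other forms of this core, such as GCGTG, were not searched, so a window without capitals may still hold them. A hit on both strands overlaps as CACGTG, which is also an E-box.
Atp2b1: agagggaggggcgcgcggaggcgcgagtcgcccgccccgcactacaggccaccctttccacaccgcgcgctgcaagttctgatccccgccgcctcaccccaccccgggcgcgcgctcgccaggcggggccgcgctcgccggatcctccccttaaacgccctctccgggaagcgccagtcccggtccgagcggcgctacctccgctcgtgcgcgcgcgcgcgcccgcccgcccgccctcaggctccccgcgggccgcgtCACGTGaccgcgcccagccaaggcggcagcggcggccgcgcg
Itpr3: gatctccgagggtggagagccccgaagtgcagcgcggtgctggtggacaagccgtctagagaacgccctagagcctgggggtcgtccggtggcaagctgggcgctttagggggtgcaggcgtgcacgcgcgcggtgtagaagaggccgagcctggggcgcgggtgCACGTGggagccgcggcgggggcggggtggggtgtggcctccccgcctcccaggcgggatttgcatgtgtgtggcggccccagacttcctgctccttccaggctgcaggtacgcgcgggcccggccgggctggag
Ryr2: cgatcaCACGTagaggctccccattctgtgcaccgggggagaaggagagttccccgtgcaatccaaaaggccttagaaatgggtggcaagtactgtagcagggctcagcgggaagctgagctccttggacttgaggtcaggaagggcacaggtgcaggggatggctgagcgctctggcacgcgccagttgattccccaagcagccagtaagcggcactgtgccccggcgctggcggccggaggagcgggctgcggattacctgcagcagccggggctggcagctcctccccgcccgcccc
Stim1: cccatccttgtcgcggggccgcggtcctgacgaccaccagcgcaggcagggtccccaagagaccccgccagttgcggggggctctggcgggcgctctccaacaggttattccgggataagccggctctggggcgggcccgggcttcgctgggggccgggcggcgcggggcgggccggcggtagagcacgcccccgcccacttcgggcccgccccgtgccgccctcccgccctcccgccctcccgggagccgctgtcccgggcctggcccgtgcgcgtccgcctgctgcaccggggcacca
Atp2a3: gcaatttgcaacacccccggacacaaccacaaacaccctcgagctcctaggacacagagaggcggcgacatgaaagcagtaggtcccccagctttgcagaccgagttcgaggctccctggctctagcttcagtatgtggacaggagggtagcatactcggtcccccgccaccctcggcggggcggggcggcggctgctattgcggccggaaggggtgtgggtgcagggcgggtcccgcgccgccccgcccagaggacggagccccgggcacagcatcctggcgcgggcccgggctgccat

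ACGTG was present in 1 window each of Atp2b1, Itpr3 and Ryr2, that is in 3 of 8 windows, and in 19.6% of all 32851 windows of the same length. It was not among the letters of the windows of Stim1, Atp2a3, Itpr2 and Orai1, nor of the second Atp2b1 window. The cyclic AMP response element TGACGTCA, searched on both strands, was in 0 of 8 windows and in 1.79% of all windows. All 8 windows were rich in G and C, from 65.3% to 79.3%, beside a median of 52.7% over all windows. The motif shares over all windows are therefore not matched to these windows in G and C. Such a match is a count of letters and does not show a binding site.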

How the data were processed

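Total RNA was labelled with biotin after cDNA synthesis with the Ambion WT Expression Kit and measured on 12 one-colour arrays, per the labels' protocols. The authors deposited 1 log2 value per probe set and array. No label or header names the summary software, the normalization or the genome build, and that the scale is log2 was read from the values (3.69 to 14.47). The number of arrays limits the precision.

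Conditions and replicate numbers came from the titles. Rows were named through the platform annotation: 21789 carry 1 symbol, 1621 several and 12146 none, and the symbols of all 9 genes equal those of RefSeq by gene identifier. Limma 3.58.1 in R 4.3.3 fitted 1 mean per condition to all rows (9 residual degrees of freedom), with two-sided p-values adjusted by Benjamini-Hochberg at 0.05. The fit was also run on simulated data with errors drawn independently for each row. That run does not cover deviations shared by the rows of an array. For genes with several rows the brightest stands. The genes, lists, tests and alternatives were chosen with earlier results of these data known. Of the further calcium genes, every called gene was to be named where 10 or fewer were called in a comparison, otherwise the 5 largest differences in each direction, with the smallest p in a role without a call; in DC against CC, Slc8a1, Stim2, Letm1, Nucb1, Cacna1a and Cacnb1 were named after their values were seen, as were Orai3, Cacna1c and Cacna1d. Genes like Calb1 and Ryr2 are the 4 with the highest Pearson r among rows with 1 symbol averaging above the median of all values, predicted, clone-named, microRNA, small nucleolar and olfactory receptor genes left out. Alternatives changed the scaling, the rows, the arrays or the model. Some list members are not reported here.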

Additional observations from a re-analysis of the deposited data

Results flagged for a closer look

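In the 9 genes, 27 groups of 4 arrays were examined for an array far from the others, and 1 was found. Calb1 on array DC 2 read 7.28, with the nearest other DC array at 7.59, a gap of 0.873 of the group's range, above Dixon's 95% critical value. Chance alone gives about 1 such group in 20. Without DC 2, the Calb1 difference was 1.71 for RC against DC and -1.60 for DC against CC, and both were still called.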

How the results depend on the processing

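Over 22 alternatives, the 27 differences of the 9 genes kept their direction and their side of the threshold in 556 of 594 cases; 22 calls ended, 6 were gained and 10 uncalled differences near 0 changed sign. With single arrays left out, differences lay between -0.068 and 0.019 (Orai1, DC against CC), -0.086 and 0.00073 (Orai1, RC against DC), -0.0089 and 0.060 (Itpr2, RC against DC), and -0.061 and 0.029 (Atp2a2, RC against CC). Without CC 3 and CC 4, Orai1 was at 0.0033 in DC against CC and Calb1 at -0.016 in RC against CC. Without DC 2, DC 4 and RC 3, Itpr2 was at -0.0031 in RC against DC and Atp2a2 at 0.029 in RC against CC, where Atp2a2 was at 0.0075 with quantile normalization and 0.0062 with array weights. Leaving out 1 array in turn gave 3 to 6 calls among the 9 genes for RC against DC, 5 to 6 for DC against CC and 1 for RC against CC. The same gave 7 to 15, 11 to 19 and 0 to 4 calls among the other calcium genes, and 522 to 2892, 1549 to 3718 and 57 to 352 over all rows. The highest count in the comparisons with DC was without RC 3. With only the 2 conditions in the model, RC against DC had 3 calls among the 9 genes, 5 among the others and 462 over all rows. Array weights gave 20 calls among the others and 6413 over all rows for RC against DC, 4840 over all rows for DC against CC, and 2, 18 and 2818 for RC against CC. With the interquartile range as a covariate, 1737 rows were called in RC against DC and 636 in RC against CC, and over rows above the median 439 for RC against CC. Without CC 1 and CC 2, DC against CC had 9 calls among the others and 991 over all rows, and RC against CC 0 and 23. Without CC 3 and CC 4, RC against DC had 3 calls among the 9 genes, DC against CC 8 among the others and 1568 over all rows, and RC against CC 0, 0 and 18. Without DC 2, DC 4 and RC 3, RC against DC had 2 calls among the 9 genes, and RC against CC 4 among the others and 580 over all rows. The causes of these changes were not tested. The settings that leave arrays out also rest on fewer arrays, and the part of this in the counts was not tested either.

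Same-numbered arrays did not all deviate together. The correlations of their deviations ran from -0.36 to 0.32 in RC against DC and from -0.31 to 0.38 in DC against CC. In RC against CC they ran from -0.32 to 0.47. They were over 0.1 in 1, 2 and 2 of 4 pairs, in the same order. The same-numbered array gave the highest correlation with the reference condition in 0, 0 and 2 of 4 pairs. With the replicate number as a block, 5, 6 and 1 of the 9 genes were called in these comparisons, while RC against CC had 0 calls among the other calcium genes and 68 over all rows.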
